A study of Drosophila melanogaster with 4 samples.

Results

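The genes described here are 10 genes of the embryonic nervous system of Drosophila melanogaster, taken from 14794 genes in each of the authors' deposited tables by exact match of the gene symbol, and all 10 were found in both. They are the neuroblast factors wor, dpn and ase, the progeny and commitment factors pros, nerfin-1 and scrt, and the neuron genes elav, fne, futsch and brp. The study sorted 4 cell populations from embryos by flow cytometry and sequenced the RNA of each, with 1 library per population. These were hemocytes (HC) and the non-hemocyte cells, from embryonic stages 12 to 16, and caudal visceral mesoderm (CVM) cells and the non-CVM cells, from stages 10 to 13. The labels used here do not name the driver, reporter or strain behind either sort, or the number of embryos. Both sorted cell types migrate at these stages, and the study set each against the other cells of the embryo.

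The fly nervous system is built from neuroblasts, stem cells that leave the neuroectoderm and divide asymmetrically. Each division renews the neuroblast and gives off a ganglion mother cell, whose own division yields neurons or glia. Neuroblast transcription factors come on early, RNA-binding and cytoskeletal proteins mark the neurons once they are born, and the machinery of the synapse is made later still, as axons reach their targets. Neither hemocytes, which come from head mesoderm, nor the caudal visceral mesoderm, which makes longitudinal gut muscle, belong to this lineage.

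Each deposited table compares conditions that it calls q1 and q2, and no label says which population either one is. Every value below is therefore a fold of q2 over q1, so that a positive log2 fold means a higher level in q2, and neither condition is assigned to a population. The hemocyte factor srp had a log2 fold of -3.25 in the HC table and the CVM factor HLH54F -6.04 in the CVM table, so these 2 markers were higher in q1. On the marker lists used here, 1 of 7 measured hemocyte markers in HC, Hml at 1.34, was higher in q2. The same held for 1 of 5 CVM markers in the CVM table, byn at 0.72. The hemocyte marker He had an infinite fold in HC and is not among the measured ones. Its test statistic there had the negative sign of genes higher in q2, such as Hml. No difference has a replicate check. The error given after each fold is the standard error that the authors' own test statistic implies (the fold divided by the statistic). It comes from 1 library per condition, and how the test modelled variance between samples is not stated in the sources used here. Within a sorted population taken as a whole, fewer cells of a type and less RNA per cell cannot be told apart. A gene counted as measured when the authors' status for it was OK and its fold was finite and not an empty 0, which held for 9 of the 10 genes in each table, all but ase in HC and all but brp in CVM. Levels of the genes were not used, since the columns of levels carry no sample's name.

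In the HC table, 8 of the 9 measured genes were at least 2-fold higher in q2, and 5 of them were called. A gene is called here when its status was OK and the authors' q-value was under 0.05, a threshold set for this report. Of all 10088 measured genes of that table, 35.4% were at least 2-fold higher in q2 and 6.84% were called in that direction. In the CVM table, 1 of the 9 measured genes was at least 2-fold higher in q2 and called, which was pros. There, 4.58% of all 9580 measured genes were at least 2-fold higher in q2 and 0.762% were called. No measured member was 2-fold higher in q1 of either table, against 13.3% of all measured genes in HC and 17.6% in CVM.

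**Figure D1:**
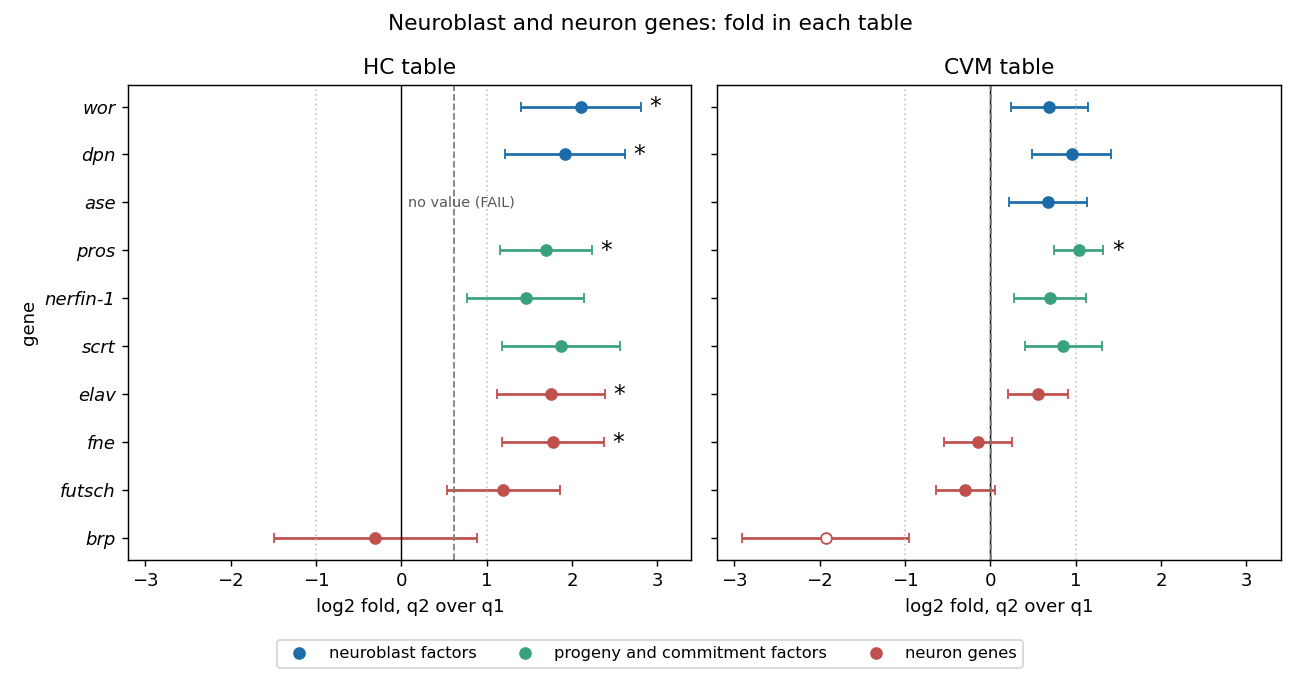
Log2 fold of q2 over q1 (horizontal axis) for each of the 10 genes (vertical axis) in the HC and CVM tables. Points are the authors' folds, bars the standard error that their test implies, and the open point a gene they did not test. Stars mark genes called at a q-value under 0.05. Dotted lines mark 2-fold, and dashed lines the median of all measured genes, 0.62 in HC and 0.00 in CVM. In HC every measured gene but brp lies to the right of the dashed line, and in CVM fne, futsch and brp lie to its left.

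The neuroblast factors come first. Worniu (wor), a zinc finger protein of the Snail family that is active in neuroblasts, lies alone at its locus (FBgn0001983, chromosome 2L, 15423293 to 15425585, BDGP5). Its log2 fold was 2.10 ± 0.70 in the authors' deposited table for HC, or 4.30-fold higher in q2, with a q-value of 0.0285. Only 5.55% of measured genes of that table had a higher fold, and of the 10 genes wor stood highest. That for CVM gives wor a log2 fold of 0.69 ± 0.45, 1.61-fold higher in q2, and it was not called (q-value 0.483).

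Deadpan (dpn), a bHLH repressor of the Hes type found in neuroblasts throughout the nervous system, is the only gene listed at its locus (FBgn0010109, chromosome 2R, 4116476 to 4119832), and an antisense RNA overlaps it in the Ensembl annotation of BDGP6. Its log2 fold was 1.92 ± 0.70 in the authors' deposited table for HC, or 3.78-fold higher in q2. The q-value of 0.0492 lay just inside the threshold of 0.05 used here. For CVM the authors' deposited table gives dpn 0.96 ± 0.46, 1.94-fold higher in q2, just short of 2-fold, with a q-value of 0.235. A higher fold was found in 8.58% of measured genes in HC and 5.09% in CVM.

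Asense (ase) is a bHLH factor of neural precursors and belongs to the achaete-scute complex, a cluster of neighbouring bHLH genes (FBgn0000137). The tables place it in a shared locus of 12 genes (chromosome X, 173736 to 364670), among them its relatives ac, sc and l(1)sc. The authors' deposited table for HC gives the status FAIL and an empty 0 to all 12 genes of this locus, so ase has no value there. By Cuffdiff's documentation that status means that a numerical problem prevented the test. In the authors' deposited table for CVM ase had a log2 fold of 0.68 ± 0.46, 1.60-fold higher in q2, with a q-value of 0.511. Its neighbours ac, sc and l(1)sc, which give ectoderm cells the competence to become neural, had 1.11 ± 0.59, 1.16 ± 0.62 and 0.96 ± 0.49 there. None of them was called. The 4 bHLH genes were thus all higher in q2 of that table, as were 50.4% of all its measured genes. CG32816, which overlaps ase on the opposite strand in the Ensembl annotation of BDGP6, had -2.07 (q-value 0.0736). The sources used here do not state whether reads were counted by strand, so reads of such a pair cannot be told apart.

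The factors of the neuroblast's progeny followed. Prospero (pros) is a homeodomain protein that is made in the neuroblast, carried into the ganglion mother cell by Miranda, and there switches self-renewal off (FBgn0004595, chromosome 3R, 7197709 to 7219326). In the Ensembl annotation of BDGP6 it overlaps KP78a and KP78b on the opposite strand. It was the only one of the 10 genes called in both tables. Its log2 fold was 1.70 ± 0.53 in the authors' deposited table for HC (q-value 0.0193), or 3.24-fold, and 1.04 ± 0.29 in that for CVM (q-value 0.00517), or 2.05-fold. The implied error of pros was the smallest among the members in HC, and in CVM as well. In CVM its fold was the highest of the measured members, with 4.21% of all measured genes above it, whereas in HC 13.9% of genes lay above it and wor, dpn, scrt, fne and elav had higher folds. Those 5 folds exceeded that of pros by less than the implied error of any of these genes.

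Scratch (scrt), a zinc finger protein related to Snail that is made across the developing nervous system (FBgn0004880, chromosome 3L, 3983916 to 3988589), was close to dpn in both tables. It had a log2 fold of 1.87 ± 0.69 in the authors' deposited table for HC, or 3.66-fold, and a q-value of 0.0538, just outside the threshold. In that for CVM it had 0.85 ± 0.45, or 1.81-fold, with a q-value of 0.304. Nerfin-1, a zinc finger protein of newly born neurons that is needed for early axon guidance (FBgn0028999, chromosome 3L, 909139 to 912319), had the lowest fold of the measured factors in HC. Its log2 fold was 1.46 ± 0.69 there, or 2.75-fold, and 0.70 ± 0.42 in CVM, or 1.62-fold, with q-values of 0.131 and 0.422 in the authors' deposited tables. In HC 20.4% of all measured genes had a higher fold than nerfin-1, against 9.64% for scrt.

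The neuron genes elav and fne encode related RNA-binding proteins that act on splicing and 3' end choice in neurons. In the authors' deposited table for HC they had almost the same log2 fold, 1.78 ± 0.60 for fne (q-value 0.0312) and 1.75 ± 0.63 for elav (0.0455). Both were called, with folds of 3.42 and 3.37 in favour of q2. Both lay inside the range of the measured factors of that table, 1.46 to 2.10.

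In CVM elav and fne had opposite signs. There elav had 0.56 ± 0.35, or 1.47-fold higher in q2 (q-value 0.455), below all 6 factors, while fne had -0.15 ± 0.40, or 1.11-fold higher in q1 (0.939), in the authors' deposited table. The difference between them was not tested, and their intervals of 1 implied error overlap. While fne is alone at its locus (FBgn0086675, chromosome X, 12832568 to 12839836), elav shares its own with arg and CG4293 (FBgn0260400, chromosome X, 403451 to 424324), and arg overlaps it on the opposite strand in the Ensembl annotation of BDGP6. The enzyme gene arg (arginase) had -0.40 ± 0.83 in HC and -0.19 ± 0.88 in CVM in the authors' deposited tables. CG4293 had -0.64 ± 0.43 in HC and 0.46 ± 0.36 in CVM, and none of these was called. With errors this wide the direction of arg is not established in either table. In HC elav was called higher in q2 and neither listed neighbour was called.

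Futsch, the microtubule-associated protein recognised by the antibody 22C10 that labels axons (FBgn0259108, chromosome X, 1307911 to 1345416), had a log2 fold of 1.19 ± 0.66 in the authors' deposited table for HC. That was 2.29-fold higher in q2, with a q-value of 0.206 and 28.7% of measured genes above it. In the authors' deposited table for CVM futsch had -0.29 ± 0.35, or 1.22-fold higher in q1 (q-value 0.811), and 67.1% of genes lay above it. Its neighbour in a shared locus is CG14773, which had 1.77 ± 1.42 in HC and 0.37 ± 1.35 in CVM in the authors' deposited tables. Neither was called (q-values 0.397 and 0.787), and with errors this wide the direction is not established in either table.

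Bruchpilot (brp), a scaffold protein of the presynaptic active zone and the latest to act of the 10 genes (FBgn0259246, chromosome 2R, 5391293 to 5424980), was the exception in HC. There its log2 fold was -0.30 ± 1.19, or 1.23-fold higher in q1, with a q-value of 0.907 in the authors' deposited table, and 76.5% of measured genes had a higher fold. That error was the widest of the members and exceeded the fold, so neither direction was detectable. In the authors' deposited table for CVM brp had the status NOTEST, which by Cuffdiff's documentation means too few alignments for a test. That line carries a log2 fold of -1.93 ± 0.98, or 3.81-fold higher in q1, with an unadjusted p-value of 0.0479 and a q-value set to 1. It enters none of the counts.

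Taken by role, the neuroblast and progeny factors had a median log2 fold of 1.87 over 5 measured genes in HC, and the neuron genes 1.47 over 4. In CVM the medians were 0.78 over 6 factors and -0.15 over 3 neuron genes, a difference of 0.92. The 6 factors did not overlap with the 3 neuron genes in CVM, since the lowest factor, ase, had 0.68 and the highest neuron gene, elav, 0.56, although this gap is smaller than the implied error of either gene. In HC the difference of the medians was 0.40, and elav and fne lay among the factors. The HC neuron median includes brp, whose direction was not detectable. Among elav, fne and futsch the middle fold in HC was that of elav, 1.75. The CVM medians leave out brp and include ase, so the differences of the 2 tables cover unlike sets of genes. Over neuron genes with a locus of their own, fne and brp, the median in HC was 0.74 and the difference 1.14. With 1 library per condition, these differences were not tested.

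**Figure D2:**
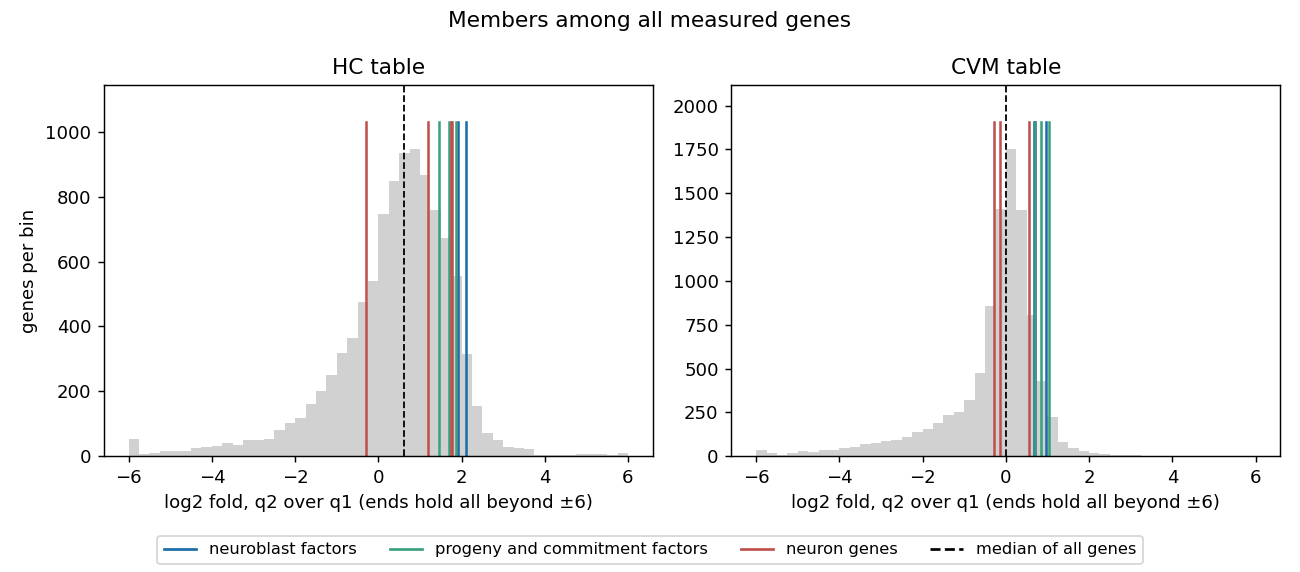
Number of genes (vertical axis) by log2 fold of q2 over q1 (horizontal axis, bins of equal width) among all measured genes of the HC and CVM tables, with a line for each measured member. The factors lie to the right of the median of all genes in both tables, at 1.46 to 2.10 in HC and 0.68 to 1.04 in CVM, and the neuron genes range from -0.30 to 1.78 in HC and from -0.29 to 0.56 in CVM.

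The whole HC distribution was shifted towards q2. Its median log2 fold over all measured genes was 0.62, and 69.9% of genes were above 0, whereas in CVM the median was 0.00 and 50.4% were above 0. Relative to that median the members of the HC table had 1.49 for wor, 1.25 for scrt (with dpn between these), 1.16 for fne, 1.13 for elav, 1.08 for pros, 0.84 for nerfin-1, 0.58 for futsch and -0.92 for brp. On this centred scale 6 of 9 were at least 2-fold higher in q2, against 16.0% of all measured genes. Nerfin-1 and futsch were under 2-fold on it.

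The counts depended on their thresholds. In HC the 5 called genes had q-values of 0.0193 to 0.0492, and at a q-value under 0.01 none of the 9 was called, against 2.04% of all measured genes called higher in q2. Cuffdiff's unadjusted p-value was under 0.05 for 7 of the 9, and for 29.9% of all measured genes in either direction. In CVM it was under 0.05 for 2 of the 9, and for 16.9% of all measured genes. In CVM a size rule of 1.5-fold took in all 6 factors and no neuron gene, against 13.8% of all measured genes. The highest neuron gene, elav at 1.47-fold, lay just below that rule and the lowest factor, ase, at 1.60-fold. This gap is smaller than the implied error of either gene.

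Between the tables, all 8 members measured in both had a higher log2 fold in HC than in CVM. The difference, HC minus CVM, ranged from 0.66 for pros to 1.92 for fne, with a median of 1.11. Over all 8927 genes measured in both, the median difference was 0.65, and 75.3% were higher in HC. The neuron genes fne and futsch, at 1.92 and 1.49, had the largest differences, followed by wor at 1.42 and elav at 1.20. Dpn, scrt and nerfin-1 had differences of 0.96, 1.02 and 0.76. With each table centred on its own median, pros differed by 0.05 and nerfin-1 by 0.15, while fne differed by 1.31 and futsch by 0.87. The tables share no library. They differ in embryonic stage, in the cells sorted and in the form of the deposited output, which cannot be told apart. Folds were written as ln in HC and as log2 in CVM. The status FAIL was given to 322 genes in HC and 39 in CVM, and 568 q-values lay above 1 in HC against 0 in CVM. The difference between the tables was not tested.

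**Figure D3:**
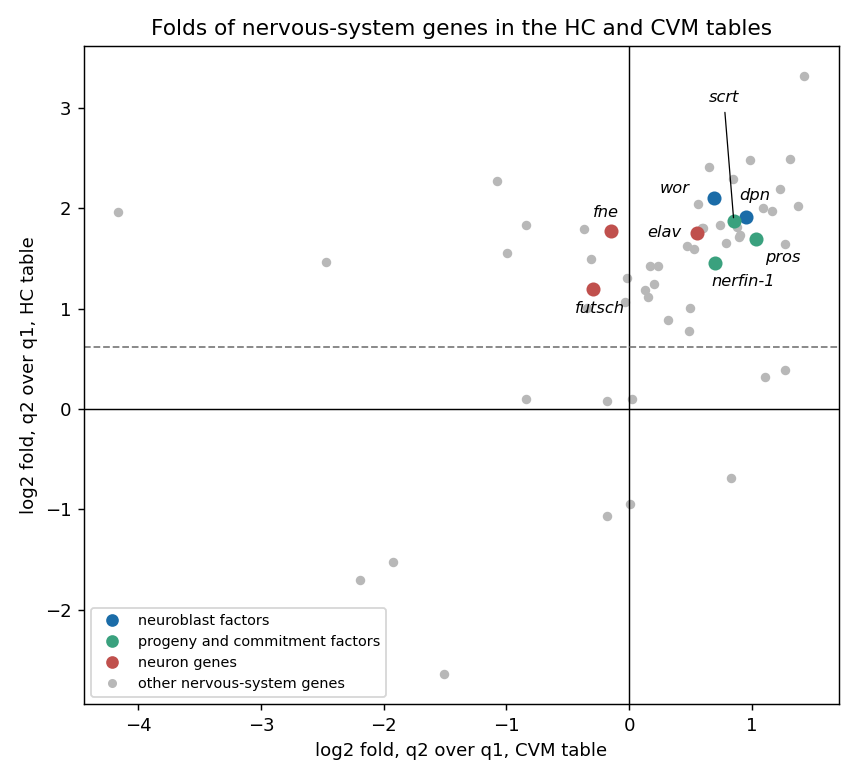
Log2 fold of q2 over q1 in the HC table (vertical axis) against the CVM table (horizontal axis) for the 8 members measured in both and 49 other nervous-system genes from the lists described in the text. The dashed line is the median of all measured genes in HC, 0.62; 5 factors and elav sit together in the upper right, while fne and futsch lie left of 0 on the CVM axis.

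The other genes of neural development come from 8 lists drawn up from textbook roles with earlier results of these data known. Proneural and early neuroectoderm factors, which choose where neuroblasts form, had a median log2 fold of 2.27 over 7 measured genes in HC and 0.98 over 11 in CVM. In HC 5 of the 7 were called higher in q2, against 6.84% of all measured genes. They were led by the proneural bHLH genes amos at 3.32 and ato at 2.50, with the homeodomain factor Dr at 2.48, sca at 2.27 and D at 2.20 in the authors' deposited table. In CVM the Sox factor D was called at 1.23, and sca, a secreted protein of proneural clusters, was called in the other direction at -1.08.

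Genes of neuroblast polarity and division had medians of 1.16 in HC and 0.49 in CVM, over 12 measured genes in each. The adaptor mira (Miranda), which carries Prospero into the ganglion mother cell, was called in both tables like its cargo, with 2.29 ± 0.59 in HC and 0.85 ± 0.29 in CVM in the authors' deposited tables. It shares its locus with other genes. Also called were the RNA-binding protein gene stau at 1.25 and the polarity gene baz at 1.42 in HC, and the tumour suppressor l(2)gl at 0.49 in CVM. These folds did not stand far out, with 26.9% of all measured HC genes above stau, 21.6% above baz, and 17.9% of CVM genes above l(2)gl. Over the whole list the folds ranged from 0.08 to 2.29 in HC and from -0.18 to 1.27 in CVM.

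The temporal factors, which neuroblasts express in sequence, had medians of 1.92 in HC and 0.78 in CVM over 6 genes. All 6 were at least 2-fold higher in q2 of HC, and Kr at 2.41, grh at 2.03 and pdm2, which was 4.01-fold higher in q2, were called in the authors' deposited table. In CVM grh was called at 1.38. Neuronal identity factors, which set the fate of single neuron classes, had medians of 1.72 and 0.74 over 9 genes. All 9 were at least 2-fold higher in q2 of HC, with vvl at 1.98, eya at 1.84, ap at 1.81 and tup at 1.65 called. Of all measured HC genes, 35.4% were at least 2-fold higher in q2 and 6.84% were called in that direction. Centred on the HC median, 5 of the 6 temporal and 6 of the 9 identity factors passed 2-fold, against 16.0% of all measured genes. In CVM tup at 1.27 and vvl at 1.17 were called higher in q2 and eve at -4.16 higher in q1 in the authors' deposited table. Several of these factors, grh, tup, vvl, eya and eve among them, also act in epidermis, heart, trachea or mesoderm. The part of neural cells in their folds was not tested.

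The genes of the differentiated neuron come next. The axon and RNA-binding list had medians of 1.32 in HC and -0.34 in CVM over 9 genes each. In HC stai (stathmin, a microtubule regulator) at 2.05, the cadherin CadN at 1.79 and the adhesion protein Fas2 at 1.55 were called higher in q2. In CVM Fas2 at -0.99 and Rbp9, the third gene of the elav family, at -2.20 were called higher in q1 in the authors' deposited table. Rbp9 had -1.71 ± 5.10 in HC and was not called (q-value 0.867), an error that leaves its place beside elav and fne unknown in that table. Fas2 is also made outside the nervous system.

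Synaptic vesicle and release genes, the class to which brp belongs, had a median of -1.01 over 8 of 11 genes in HC and -0.08 over 6 of 11 in CVM, and none was called in either authors' deposited table. The largest folds were cpx at -2.64 and Rim at -1.77 in HC, and Syn at -1.92 and cpx at -1.51 in CVM. For cpx in HC the implied error was 9.62 log2 units, so that its value carries no information on direction. Transmitter genes had 5 of 8 measured in HC, with Cha (choline acetyltransferase) at 1.89 and Trh (tryptophan hydroxylase) at 1.47, neither called, and 1 of 8 in CVM, Trh at -2.47. Ion channels and receptors had 2 of 7 measured in HC, eag at 1.24 and sei at 0.32, and 1 of 7 in CVM, sei at 1.11, and none was called in the authors' deposited tables.

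**Figure D4:**
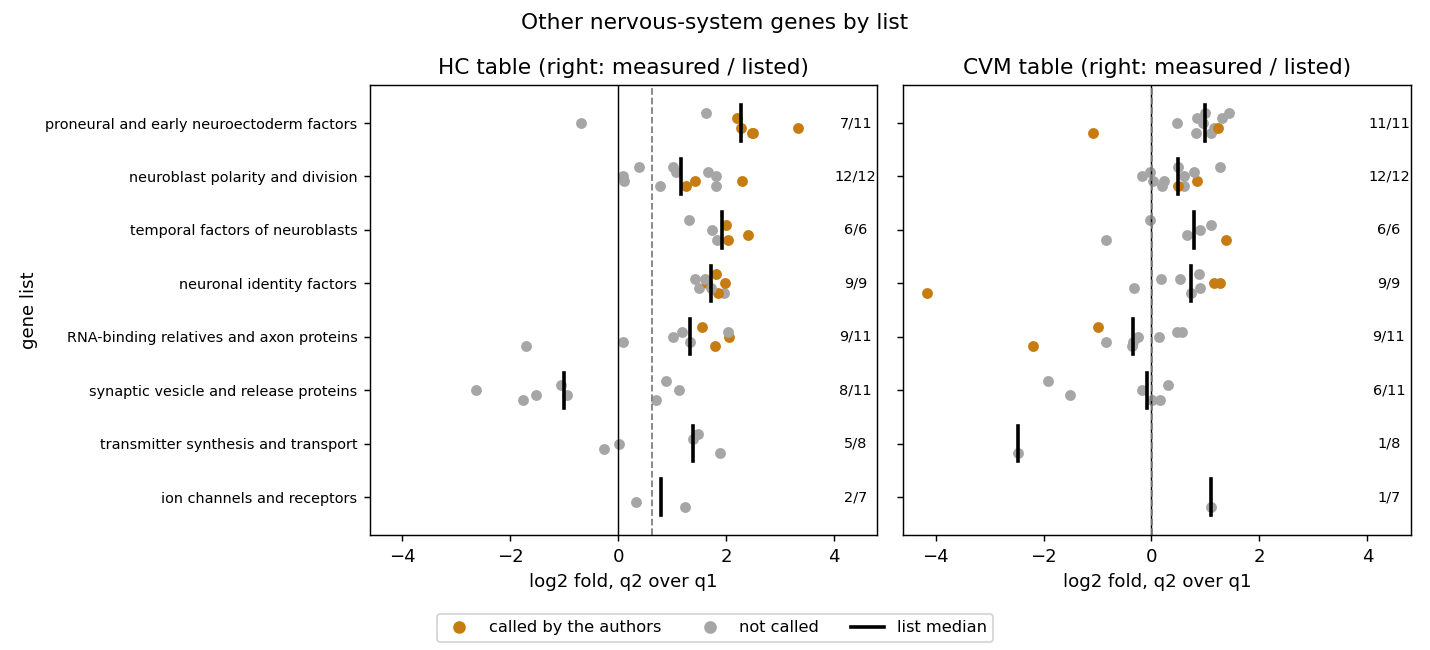
Log2 fold of q2 over q1 (horizontal axis) of the measured genes of 8 nervous-system lists (vertical axis; points are spread vertically within a list only for legibility) in the HC and CVM tables. Black bars are list medians (a single gene where 1 is measured), orange points called genes and dashed lines the median of all measured genes. The medians of the first 4 lists, of transcription factors and neuroblast genes, lie at 1.16 to 2.27 in HC and 0.49 to 0.98 in CVM.

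In CVM, 5 of 11 synaptic genes, 7 of 8 transmitter genes and 6 of 7 channels and receptors had the status NOTEST, like brp, while all 38 genes on the lists of proneural, polarity, temporal and identity factors had the status OK. A status other than OK was given to 32.2% of all CVM genes. In HC the genes without the status OK were 3 of 11, 3 of 8 and 5 of 7 on these 3 lists, against 27.3% of all genes. There the proneural list also had 4 of 11 without it, among them ac, sc and l(1)sc of the failed locus, and the polarity, temporal and identity lists had none. The number of alignments depends on a gene's length as well as its level, and their parts were not tested.

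Markers of other cells moved with the same conditions. Of all measured genes, 5.91% were called higher in q1 in HC, near the share called higher in q2, whereas in CVM 8.49% were called higher in q1, against 0.762% in q2. In HC, 5 of 7 measured hemocyte markers were called higher in q1, with log2 folds of -6.35 for Pxn to 1.34 for Hml over the list. The hemocyte marker He had an infinite fold there, so it was not measured. In CVM, 4 of 5 markers of the caudal visceral mesoderm (-6.04 to 0.72) and 8 of 8 of somatic muscle (-5.73 to -1.73) were called higher in q1, as were 3 of 7 hemocyte markers (-1.77 to -0.08). In HC no marker of the caudal visceral mesoderm or of muscle was called higher in q1, and their medians were 1.55 and 0.95. The muscle factor Mef2 was called in both authors' deposited tables, at 1.89 in HC and -1.73 in CVM. The markers of glia, cells born from the same lineages as neurons, were divided. Their median was -0.74 in HC and 0.29 in CVM over 8 genes. The glial factor repo had 2.10 ± 0.74 (q-value 0.0398) in HC, near wor, and 0.87 ± 0.68 (0.624) in CVM, and Gli was called higher in q2 of both tables at 1.99 and 1.22. In HC gcm2 at -3.07 and moody at -2.92 were called higher in q1 in the authors' deposited table; gcm2 is also used by hemocytes. The part of these markers in the members' folds was not tested.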

How the data were processed

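RNA sequencing of 4 sorted populations, 1 library each, was deposited as 2 tables in Cuffdiff's layout, named HC and CVM. Reads had been handled with Cuffdiff and Cufflinks 1.3.0, with TopHat 1.3.3 and with Bowtie 0.12.7 on the build BDGP5, per the submitters' processing notes. Annotation, strand setting and depth: not given in the sources used here. Per the file headers, folds are natural log (ln) in HC, divided here by the natural log of 2, and log2 in CVM. The deposited fold and test statistic columns are read as scores, because infinite folds are written as extreme numbers. The q-value and p-value of each gene are the authors', and 568 q-values in HC lie above 1. The 4 columns of levels (FPKM) carry no sample name and were not used.

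In HC 316 genes of status OK with fold and statistic at exactly 0 were left out, a choice made on seeing them. Loci are given counted from 1: widths of 1488 single-gene loci matched BDGP6 genes with starts counted from 0, and 146 with starts from 1. Summaries used Python 3.11.15 and pandas 2.3.3 and were checked on a made-up table. The text names all 10 members, locus neighbours, and companion genes called at a q-value under 0.05 (or the largest 2 of a list without a call). It also names repo, srp, HLH54F and Mef2 as markers of other cells. Gli, gcm2 and moody were added as called glial markers after their values were seen. Pxn, Hml, He and byn were likewise added after their values were seen. The members and lists were chosen with earlier results of these data known, and 1 listed gene had no matching symbol. Alternatives were centring, every status, own locus only, small implied errors and other thresholds.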

Additional observations from a re-analysis of the deposited data

Results flagged for a closer look

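The results given here are members measured in both tables, and companion genes of the nervous system called in both, whose folds had opposite signs in the tables; uncalled companion genes with opposite signs are not listed. No difference between the tables was tested. Among the members these were fne, with a log2 fold of 1.78 in HC and -0.15 in CVM, and futsch, with 1.19 in HC and -0.29 in CVM. Both CVM values lie within 1 implied standard error of 0. Among the companion genes called in both authors' deposited tables, the proneural cluster gene sca had 2.27 in HC and -1.08 in CVM, and the adhesion gene Fas2 had 1.55 in HC and -0.99 in CVM.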

How the results depend on the processing

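Of 36 recomputed values, 32 kept their direction and stayed within 1.5 times the reported count or within the members' median implied error. The exceptions were the members called in HC, 0 instead of 5 at a q-value under 0.01, the members past the size rule in CVM, 6 instead of 1 at 1.5-fold, and, where shared loci were dropped, the neuron median of HC at 0.74 and its distance below the factor median at 1.14. That last setting leaves fne and brp alone as neuron genes, by construction. Some of the 32 could not have moved either. Centring cancels in the difference of the medians, and all 9 measured CVM members already had an implied standard error under 0.5. Keeping every status left the CVM factors and the HC neuron genes the same, and dropping shared loci left the measured HC factors the same. The 32 are therefore not all checks. No HC member had an implied standard error of at most 0.5, so that alternative gave no value there. Keeping the exact zeros in HC, chosen after seeing the data, moved the table's median to 0.57 and no count of members. No replicates exist to leave out, and without read counts the depth is unknown.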
